A study of Mus musculus with 4 samples.

Results

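The 64 small nucleolar RNAs (snoRNAs) of the deposited listing were 46 box C/D RNAs, whose symbols start with Snord, and 18 box H/ACA RNAs, whose symbols start with Snora. They were the rows with such a symbol and a mean of at least 1 RPKM (a read density that corrects for transcript length and library depth) over the 4 libraries, out of 14207 genes and 19291 transcript rows. The threshold removed no member, because all 64 listed snoRNA symbols passed it and each had 1 row. The NCBI RefSeq table for the mouse holds 133 snoRNA symbols, 94 Snord and 39 Snora, so 69 of them were not among the listed rows and were not analysed here. The cells were regulatory T (Treg) cells, CD4 T cells that carry the transcription factor Foxp3 and keep other immune cells in check, sorted from spleens of C57BL/6 mice. The 2 Nsd2 cKO libraries came from mice with a conditional knockout of the histone methyltransferase Nsd2 in Treg cells, and the 2 WT libraries came from wild-type mice. The labels name neither the Cre driver nor the age or sex of the mice. Each library was made from RNA of at least 3 mice pooled together and was read as 50-nt single reads, so that 2 libraries per genotype were 2 pools, and p-values measured the spread between pools.

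SnoRNAs are stable nuclear RNAs that pair with ribosomal RNA (rRNA) and direct its chemical modification in the nucleolus. Box C/D snoRNAs carry box C near the start and box D near the end and guide 2'-O-methylation by fibrillarin (Fbl), while H/ACA snoRNAs fold into hairpins, end in an ACA box and guide pseudouridylation by dyskerin (Dkc1). A few members, among them U14 (the Snord14 family), U22 (Snord22) and U17 (Snora73), are needed for cleavage of the rRNA precursor. In mammals most snoRNAs are cut from introns of host genes, many of which encode ribosomal proteins or translation factors, or are noncoding small nucleolar RNA host genes (Snhg).

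The 2 classes differed in their end motifs. The symbols that set the classes are names for these box types, so the motif counts describe the members and are no independent check. The sequences below are those of GENCODE M21 on the GRCm38 build, with box C (TGATG) and box D (CTGA) in capitals for Snord and the ACA box in capitals for Snora. Snora24 and Snora65 are shown as the H/ACA snoRNAs of lowest unadjusted p and of highest level. Snora73a and Snora73b are copies of U17 that differed in their genotype values. Snord96a had the highest level of all members, Snord72 the lowest fold change of the Snord class, and the pairs Snord35a with Snord35b and Snord14c with Snord14d are near relatives. They lie at chr3:123507937-123508066 (minus strand, Snora24), chr2:32963291-32963420 (plus, Snora65), chr4:132352775-132352979 (minus, Snora73a), chr4:132352322-132352526 (minus, Snora73b), chr11:48802032-48802112 (plus, Snord96a), chr15:5118404-5118484 (plus, Snord72), chr7:45126346-45126435 (minus, Snord35a), chr7:45123025-45123111 (minus, Snord35b), chr9:40803583-40803668 (plus, Snord14c) and chr9:40803995-40804080 (plus, Snord14d).
Snora24: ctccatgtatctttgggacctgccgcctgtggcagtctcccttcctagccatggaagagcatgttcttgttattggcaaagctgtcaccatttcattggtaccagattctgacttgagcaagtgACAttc
Snora65: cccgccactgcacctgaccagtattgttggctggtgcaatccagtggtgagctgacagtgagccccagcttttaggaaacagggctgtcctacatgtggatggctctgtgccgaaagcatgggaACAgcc
Snora73a: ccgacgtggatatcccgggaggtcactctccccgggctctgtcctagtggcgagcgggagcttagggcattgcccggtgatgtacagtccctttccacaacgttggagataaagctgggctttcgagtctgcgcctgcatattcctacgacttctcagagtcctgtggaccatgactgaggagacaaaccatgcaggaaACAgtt
Snora73b: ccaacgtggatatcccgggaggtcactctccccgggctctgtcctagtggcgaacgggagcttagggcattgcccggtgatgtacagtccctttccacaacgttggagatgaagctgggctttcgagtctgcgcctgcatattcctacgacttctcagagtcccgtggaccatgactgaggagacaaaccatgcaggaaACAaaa
Snord96a: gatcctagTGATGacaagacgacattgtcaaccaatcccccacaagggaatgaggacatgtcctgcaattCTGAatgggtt
Snord72: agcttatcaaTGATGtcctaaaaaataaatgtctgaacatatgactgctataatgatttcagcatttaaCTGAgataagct
Snord35a: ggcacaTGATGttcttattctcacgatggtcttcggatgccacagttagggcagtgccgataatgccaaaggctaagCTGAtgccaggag
Snord35b: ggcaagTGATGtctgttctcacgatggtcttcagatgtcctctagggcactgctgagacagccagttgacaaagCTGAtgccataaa
Snord14c: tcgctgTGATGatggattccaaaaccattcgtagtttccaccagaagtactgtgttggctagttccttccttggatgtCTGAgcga
Snord14d: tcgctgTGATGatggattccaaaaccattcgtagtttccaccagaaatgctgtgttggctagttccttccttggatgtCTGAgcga

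TGATG stood in the first 25 nt of 43 of 46 Snord and of 0 of 18 Snora members, each read on its own strand, against 384 of 1507 snoRNAs (25.5%) in GENCODE M21. CTGA stood in the last 20 nt of 44 of 46 Snord and 1 of 18 Snora members, against 35.4% of all GENCODE snoRNAs. ACA stood in the last 10 nt of 18 of 18 Snora and 3 of 46 Snord members, against 47.4% of all GENCODE snoRNAs. Only the sense strand was searched, since a snoRNA has 1 functional strand. Snord35a and Snord35b, in neighbouring ribosomal protein genes, shared a run of 17 nt, ttctcacgatggtcttc, and had no longer run in common. Counted from the first base of the sequence, Snord14d differs from Snord14c by G47A and A49G, and Snora73b differs from Snora73a by G3A, G54A, A111G, T164C, G203A, T204A and T205A.

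Few reads lay behind each value. Every one of the members' values was a whole number of reads to within 0.01 read, on the transcript lengths of RefSeq and a depth of 19228000 and 21267000 reads in the Nsd2 cKO libraries and 19515000 and 19150000 in the WT libraries. All snoRNAs together had 794 and 912 reads in the cKO libraries, against 644 and 705 in the WT libraries. The median member had 29.5 reads over all 4 libraries (range 12 to 205), 18 members had fewer than 20, and 7 had at least 100. One read was worth 0.672 to 0.746 RPKM on a Snord of 70 nt and 0.362 to 0.402 RPKM on a Snora of 130 nt. 6 values in 6 members were 0, where a count of 0 allows up to 3 reads, equal to 1.18 to 2.56 RPKM for those members. Intervals given for reads are exact 95% intervals that cover counting error only. The labels call the molecule total RNA, the series text calls the profiles mRNA, and no source used here says whether polyadenylated RNA was selected, how reads in introns and copies were divided, or whether strand was used. A value can therefore include reads of the host gene's unspliced RNA, and the members that lie in an exon or in a retained-intron transcript of the host are uncertain for the same reason.

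The lengths behind the values differed from the mature RNAs. Snord members had a median RefSeq length of 70.5 nt (45 to 221) and Snora members of 125 nt (98 to 205). Of the 64 RefSeq lengths, 47 were shorter than in GENCODE M21, 35 of them Snord and 12 Snora. The Snord members Snord45b with 45 nt and Snord68 with 48 nt were shorter than the 50-nt read itself. Base composition was alike, with a median GC content of 46.7% in Snord and 48.7% in Snora.

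Per length, the median box C/D snoRNA and the median H/ACA snoRNA had similar levels. The median Snord level was 4.99 and 5.45 RPKM in the Nsd2 cKO libraries and 4.43 and 5.19 RPKM in the WT libraries. The median Snora level was 6.09 and 4.67 RPKM in the cKO libraries and 4.04 and 4.46 RPKM in the WT libraries. The ratio of the Snord to the Snora median was therefore 0.82 and 1.17 in the cKO libraries and 1.10 and 1.16 in the WT libraries, and it lay on both sides of 1. It was 0.784 and 1.11 in the cKO libraries and 1.02 and 1.04 in the WT libraries with GENCODE lengths. A difference in level between the classes could not be told from the spread between libraries.

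Within each class a few members held much of the signal. The 3 Snord members with most reads (Snord22, Snord96a and Snord35b) held 24.1% of the 1886 Snord reads, and the 3 such Snora members (Snora65, Snora24 and Snora64) held 37.3% of the 1169 Snora reads. Mean levels spanned 1.57 to 26.7 RPKM in Snord and 1.25 to 21.8 RPKM in Snora. Level was little related to length or GC content across members (Spearman rho -0.06 and -0.06 over 46 Snord, -0.24 and 0.32 over 18 Snora, as a description of RNAs that share libraries). Near the threshold of 1 RPKM, Snora17 was the lowest Snora at 1.25 RPKM and Snord17 the lowest Snord at 1.57 RPKM, and no listed snoRNA lay below it.

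The summed H/ACA level was higher in both Nsd2 cKO libraries than in both WT libraries, and the summed C/D level was not. Snora members summed to 134.1 and 132.8 RPKM in the cKO libraries, against 104.8 and 89.8 RPKM in the WT libraries. Snord members summed to 313.0 and 337.6 RPKM in the cKO libraries, against 260.8 and 322.9 RPKM in the WT libraries. The mean Snora sum was 133.5 ± 0.98 RPKM in cKO and 97.3 ± 10.6 RPKM in WT (SD, n = 2 each), a ratio of 1.37. The mean Snord sum was 325.3 ± 17.4 RPKM in cKO and 291.8 ± 43.9 RPKM in WT (SD, n = 2 each), a ratio of 1.11. Scaled by depth, the cKO to WT ratio of pooled reads was 1.37 (1.22 to 1.54) for Snora and 1.12 (1.02 to 1.23) for Snord. These intervals cover counting error only and leave out the spread between pools, and the Snord libraries overlapped between genotypes. The Snord reads also include Snord14d, whose values equal those of Snord14c. With 2 libraries against 2, an exact permutation test cannot go below a two-sided p of 0.333, so the sums were left as values. In bulk RNA, fewer cells of a type and less RNA per cell cannot be told apart.

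**Figure D1:**
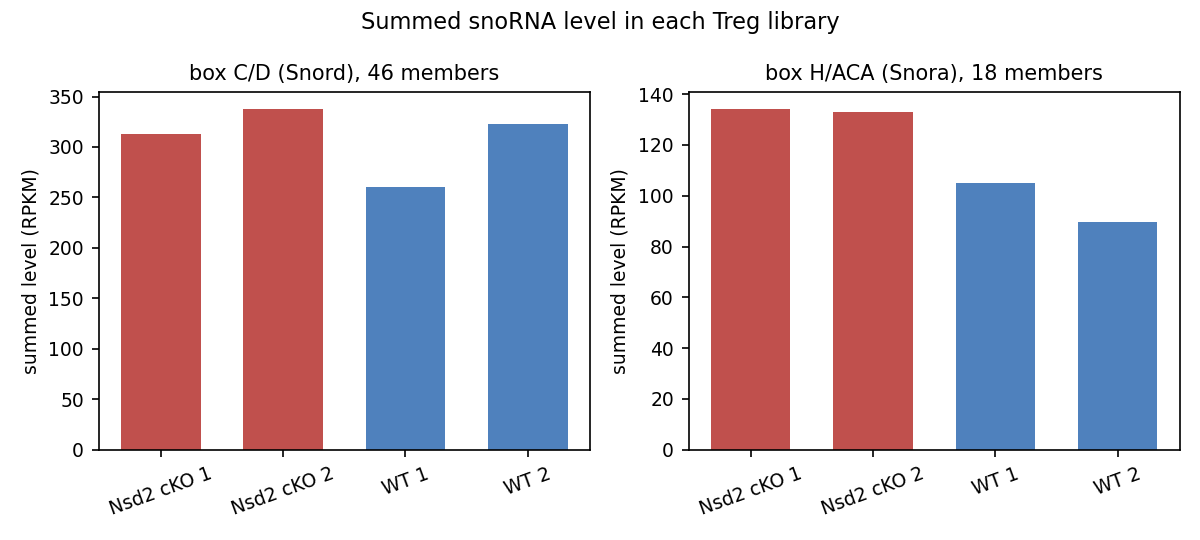
Summed level in RPKM (vertical axes from 0, with different scales) of the 46 Snord (left panel) and 18 Snora (right panel) members in each library, Nsd2 cKO in red and WT in blue. Both cKO bars exceed both WT bars for Snora (134.1 and 132.8 against 104.8 and 89.8 RPKM), while the Snord bar of cKO replicate 1 (313.0 RPKM) lies below that of WT replicate 2 (322.9 RPKM).

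The gap between the classes rested on WT replicate 2. The Snora share of all snoRNA reads was 41.1% (exact binomial interval 37.6 to 44.6) and 39.8% (36.6 to 43.1) in the cKO libraries, against 39.9% (36.1 to 43.8) in WT replicate 1 and 31.6% (28.2 to 35.2) in WT replicate 2. Without WT replicate 2 the summed ratio of cKO to WT was 1.25 for Snord and 1.27 for Snora, and without WT replicate 1 it was 1.01 for Snord and 1.49 for Snora. Both ratios stayed above 1 and the Snora ratio stayed the larger without either library, and the size of the gap between the classes depended on which WT library was used. Of 3 listed small nuclear RNAs of the spliceosome, Rnu1a1 and Rnu2-10 were highest in WT replicate 2 and Rnu6 in cKO replicate 1. Rnu1a1 had 2.11 and 8.90 RPKM in the cKO libraries against 1.39 and 33.9 RPKM in the WT libraries, and Rnu2-10 had 3.06 and 21.4 RPKM in the cKO libraries against 1.92 and 35.7 RPKM in the WT libraries. Rnu6 had 19.4 and 14.1 RPKM in the cKO libraries against 15.3 and 17.6 RPKM in the WT libraries. Their part in the result was not tested.

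Member by member, 15 of 18 Snora and 25 of 46 Snord had a log2 fold change above 0 (Nsd2 cKO over WT, on the log2(RPKM + 1) scale, which understates the change of low genes), where 59.1% of the 10700 genes tested did. The median log2 fold change was 0.40 over Snora (middle 50% from 0.03 to 0.67) and 0.09 over Snord (-0.23 to 0.40), beside 0.03 over all genes (-0.06 to 0.12). The cKO pair stood wholly above the WT pair for 8 of 18 Snora and 10 of 46 Snord members, beside 17.4% of all genes tested. It stood wholly below for 1 of 18 Snora and 3 of 46 Snord members, beside 9.06% of all genes. In either direction, 22 of 64 members had no overlap, beside 26.4% of all genes. With all 4 libraries the Snord members were near the background by this count and by their median, and the Snora members were above it, but this too depended on the WT libraries. Without WT replicate 2 the median log2 fold change was 0.257 over Snora and 0.261 over Snord, and the cKO pair stood wholly above the remaining WT library for 10 of 18 Snora and 25 of 46 Snord members, beside 32.5% of all genes. Without WT replicate 1 the median was 0.541 over Snora and -0.118 over Snord, and the counts were 13 of 18 Snora and 13 of 46 Snord members, beside 39.0% of all genes. Members that share a host gene or reads are not independent, and the difference between the classes was not tested.

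No snoRNA passed the test. In the limma fit over all 10700 genes, 0 of 64 members and 0.0% of all genes had a Benjamini-Hochberg adjusted p under 0.05, and the smallest adjusted p was 0.9998. At an unadjusted limma p under 0.05 there were 8 of 18 Snora, all higher in cKO. There were also 8 of 46 Snord, 6 higher and 2 lower. Among all genes the share was 3.1% in either direction and 2.11% in the higher direction, below that of both classes. The fit does not use the number of reads behind each RPKM value, so a member with few reads can have a low p. Snord23, picked after its values were seen, had 5 and 5 reads in the cKO libraries against 2 and 2 in the WT libraries. Its unadjusted limma p was 0.00172, while the interval of its read ratio was 0.689 to 10.4. The count is therefore not read as a result about the classes. The exact interval of the read ratio, which covers counting error only, lay above 1 for 5 Snora (Snora65, Snora24, Snora28, Snora73b and Snora75) and for 2 Snord (Snord12 and Snord33), and below 1 for 0 members.

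**Figure D2:**
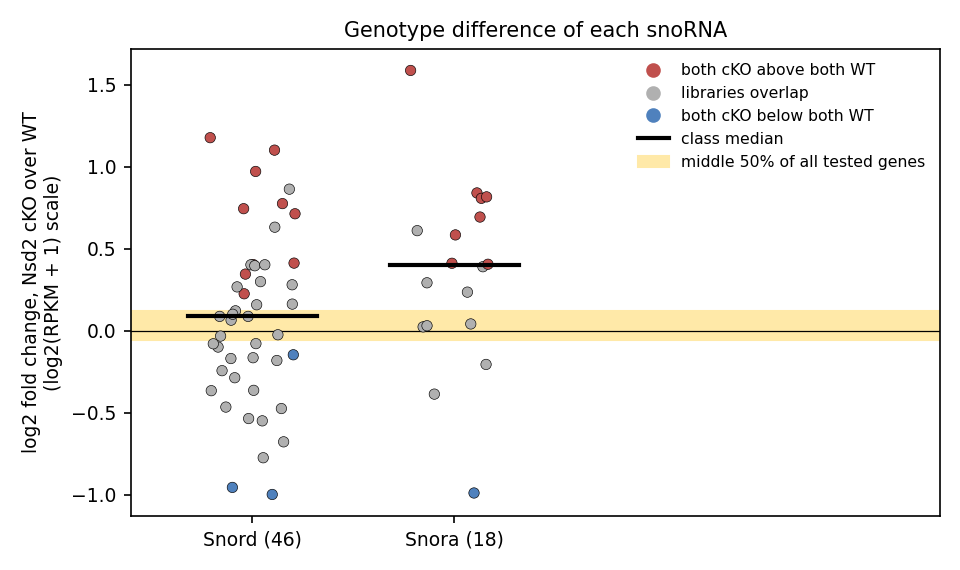
Log2 fold change, Nsd2 cKO over WT, of each Snord (46) and Snora (18) member (points, spread sideways for visibility), coloured by whether the 2 cKO libraries lay above, below or across the 2 WT libraries. The Snora median (0.40) lies above the shaded middle 50% of all tested genes (-0.06 to 0.12) and the Snord median (0.09) lies within it.

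Relative to the total of their class, members scattered between replicates by about as much as counting noise or somewhat more. An index of this scatter, the Pearson chi-square of the reads per degree of freedom, is 1 when counting noise alone is present, and it was 1.38 between the 2 cKO libraries and 1.54 between the 2 WT libraries over 45 Snord members, leaving out Snord14d. For the 18 Snora members it was 0.992 between the cKO libraries and 1.19 between the WT libraries. Between the summed reads of the 2 genotypes it was 0.989 for Snord and 1.95 for Snora. These are descriptions over few members, and the differences between the indices were not tested.

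Among the H/ACA members, 4 of the 8 with the highest level were higher in both Nsd2 cKO libraries, beside 17.4% of all genes tested. Snora24, a guide of small-subunit rRNA in human cells, had 15.2 and 16.3 RPKM in the cKO libraries (38 and 45 reads), against 8.67 and 8.03 RPKM in the WT libraries (22 and 20 reads). The groups did not overlap and the replicates of each genotype lay close together, giving a mean of 15.7 ± 0.76 RPKM in cKO and 8.35 ± 0.45 RPKM in WT (SD, n = 2 each). Its log2 fold change was 0.84 ± 0.13 (SE), the member with the lowest unadjusted limma p (0.000649, adjusted p 0.9998). Snora65, the Snora of highest level and a guide of large-subunit rRNA in human cells, had 26.0 and 26.7 RPKM in the cKO libraries, against 18.7 and 15.9 RPKM in the WT libraries. With 59 and 67 reads in cKO against 43 and 36 in WT it was the most deeply read member, and its depth-scaled read ratio was 1.52 (1.14 to 2.04).

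Snora28, a guide of small-subunit rRNA in human cells, had 10.2 and 11.6 RPKM in the cKO libraries, against 5.88 and 6.85 RPKM in the WT libraries. Snora73b, a U17 RNA, had 7.10 and 8.49 RPKM in the cKO libraries, against 4.50 and 3.57 RPKM in the WT libraries. Neither overlapped, with log2 fold changes of 0.69 ± 0.14 and 0.81 ± 0.17 (SE). Its copy Snora73a, from the neighbouring intron and with the bases shown above, had 3.30 and 3.44 RPKM in the cKO libraries against 3.0 and 5.35 RPKM in the WT libraries. Snora73a thus overlapped between genotypes and was lowest and highest in the WT pair. The 205-nt copies have 11 of 156 possible 50-nt windows in common, and no source used here says how reads in these were divided. The difference between the copies was not tested.

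The other highly read H/ACA members showed no such separation. Snora64, a guide of large-subunit rRNA in human cells, had 12.4 and 10.5 RPKM in the cKO libraries, against 14.0 and 8.93 RPKM in the WT libraries. Snora70, a guide of small-subunit rRNA in human cells, had 11.3 and 7.65 RPKM in the cKO libraries, against 11.1 and 7.29 RPKM in the WT libraries. Both were high in replicate 1 and low in replicate 2 of each genotype. Snora68, which guides large-subunit rRNA in human cells, had 14.3 and 11.0 RPKM in the cKO libraries, against 12.5 and 6.93 RPKM in the WT libraries. Snora31 had 7.43 and 5.04 RPKM in the cKO libraries, against 6.41 and 5.59 RPKM in the WT libraries. Only WT replicate 2 of Snora68 stood below its other values, and the Snora31 values overlapped fully.

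Below 5 RPKM the separated Snora members rested on few reads, and the members here were singled out after their values were seen. Snora41 had 8 and 10 reads in the cKO libraries against 5 and 3 in the WT libraries. Snora16a had 8 and 9 reads in the cKO libraries against 6 and 5 in the WT libraries, and Snora78 had 8 and 11 against 6 and 6. Their read ratios were 2.15, 1.48 and 1.51, and each interval included 1. Snora75, from the nucleolin gene Ncl, had 6 and 9 reads in the cKO libraries against 0 and 2 in the WT libraries, the highest log2 fold change of all members (1.59), with a read ratio of 7.16 and an interval of 1.67 to 64.5. Snora17, of the lowest level among Snora members, was the only one below WT in both cKO libraries, with 0 and 3 reads in cKO against 3 and 7 in WT. For Snora17, cKO replicate 2 and WT replicate 1 had the same number of reads and were set apart by library depth alone.

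Among the C/D members, Snord96a was the highest and was one of the separated ones. Snord96a, which guides an rRNA of the large subunit in human cells, had 27.7 and 33.6 RPKM in the cKO libraries (41 and 55 reads), against 23.3 and 22.4 RPKM in the WT libraries (35 and 33 reads). Its mean was 30.6 ± 4.17 RPKM in cKO and 22.8 ± 0.65 RPKM in WT (SD, n = 2 each), with a log2 fold change of 0.40 ± 0.14 (SE) and an unadjusted limma p of 0.0302. The cKO replicates differed more from each other than cKO replicate 1 did from the nearest WT library. Its read ratio of 1.35 had an interval of 0.978 to 1.87, which includes 1.

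The next C/D members by level did not separate the genotypes, apart from Snord104 and Snord37. Snord35b had 19.1 and 18.4 RPKM in the cKO libraries, against 13.5 and 20.4 RPKM in the WT libraries. Snord35a, which like it guides large-subunit rRNA in human cells, had 19.3 and 15.3 RPKM in the cKO libraries, against 10.4 and 18.8 RPKM in the WT libraries. Both relatives were low in WT replicate 1 alone. Snord22, the U22 RNA needed for small-subunit rRNA maturation in Xenopus, had 14.4 and 17.5 RPKM in the cKO libraries, against 11.0 and 24.04 RPKM in the WT libraries. Snord34 had 10.2 and 21.4 RPKM in the cKO libraries, against 11.7 and 15.8 RPKM in the WT libraries. The WT pair held both the lowest and the highest value of Snord35b and Snord22, and the cKO pair held both for Snord34, so their spread within a genotype exceeded the difference between genotypes. Snord104 had 15.7 and 13.5 RPKM in the cKO libraries, against 12.6 and 10.01 RPKM in the WT libraries, and Snord37 had 12.8 and 11.5 RPKM against 9.67 and 10.8 RPKM. Snord47, from Gas5, had 5.60 and 13.7 RPKM in the cKO libraries, against 11.8 and 13.7 RPKM in the WT libraries, with cKO replicate 1 alone low.

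Snord33, Snord49b and Snord95 had the lowest unadjusted p among separated C/D members of at least 5 RPKM, along with Snord96a, in the higher direction. Snord49b, a guide of large-subunit rRNA in human cells, had 7.43 and 5.97 RPKM in the cKO libraries (9 and 8 reads), against 4.07 and 3.31 RPKM in the WT libraries (5 and 4 reads). Snord33, a guide of small-subunit rRNA in human cells, had 12.7 and 9.75 RPKM in the cKO libraries (20 and 17 reads), against 3.12 and 8.28 RPKM in the WT libraries (5 and 13 reads). WT replicate 1 of Snord33 was the low value that made most of its log2 fold change of 0.97 ± 0.38 (SE). Without WT replicate 1 that log2 fold change was 0.39, and without WT replicate 2 it was 1.56. Snord95 had 7.65 and 8.30 RPKM in the cKO libraries (10 and 12 reads), against 3.01 and 6.14 RPKM in the WT libraries (4 and 8 reads).

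The other separated C/D members were Snord12, Snord23, Snord58b and Snord83b, named here after their values were seen. Snord12, from the noncoding Zfas1, had 15 and 21 reads in the cKO libraries against 14 and 3 in the WT libraries, so that WT replicate 2 alone stood low. Snord23 had 5 and 5 reads in the cKO libraries against 2 and 2 in the WT libraries, a log2 fold change of 0.78 ± 0.14 (SE), and the interval of its read ratio, 0.689 to 10.4, includes 1. Snord58b had 12 and 6 reads in the cKO libraries against 2 and 5 in the WT libraries, and Snord83b had 6 and 9 against 6 and 4. For Snord83b, cKO replicate 1 and WT replicate 1 had the same number of reads and were set apart by library depth alone. The 2 cKO libraries of Snord58b differed more from each other than the nearer of them did from WT.

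Of the 46 C/D members, 3 were lower in both Nsd2 cKO libraries, beside 9.06% of all genes tested, and all 3 had few reads. Snord57, a guide of small-subunit rRNA in human cells and the only one above 5 RPKM, had 6 and 6 reads in the cKO libraries against 7 and 6 in the WT libraries. cKO replicate 1 and WT replicate 2 had the same number of reads and were set apart by the depth of the libraries alone. Snord72, chosen after its values were seen, had 2.60 and 3.13 RPKM in the cKO libraries (3 and 4 reads), against 5.12 and 8.70 RPKM in the WT libraries (6 and 10 reads), a log2 fold change of -0.999 ± 0.24 (SE, unadjusted limma p 0.00711). Snord65, likewise, had 2 and 4 reads in the cKO libraries against 8 and 5 in the WT libraries. The read ratios of Snord72 and Snord65 were 0.418 (0.145 to 1.07) and 0.441 (0.137 to 1.24), both with intervals that include 1.

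**Figure D3:**
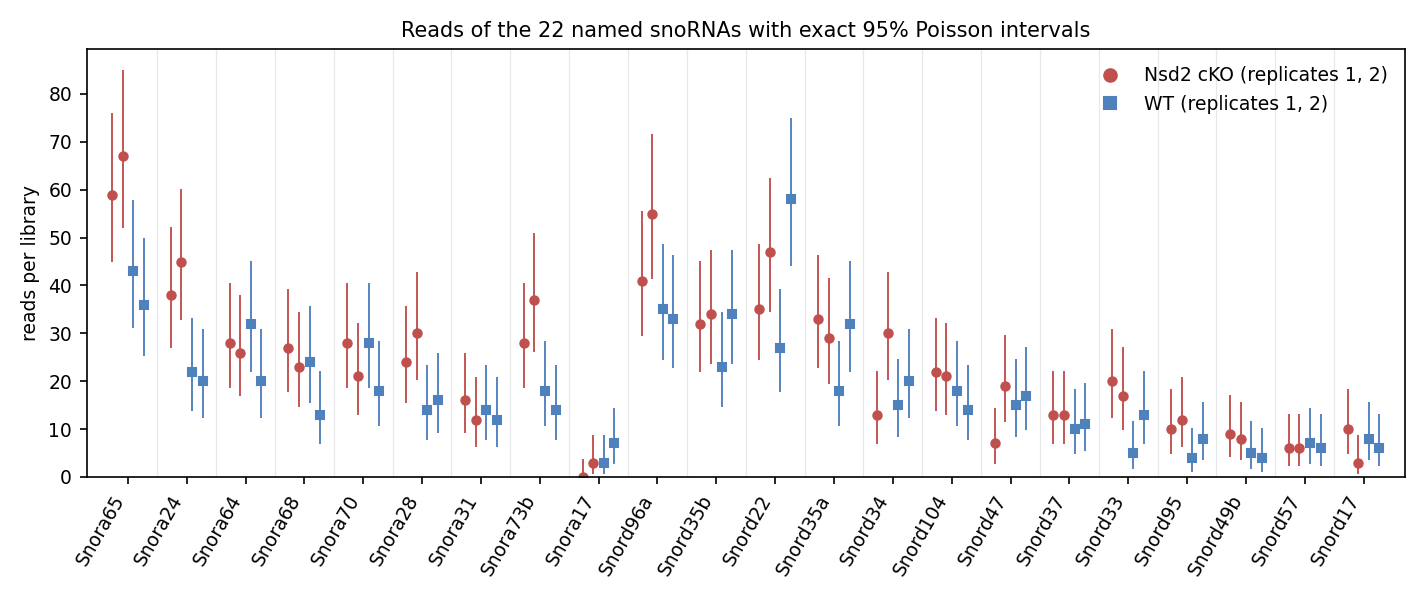
Reads per library (vertical axis) of 22 snoRNAs, the 9 Snora on the left and the 13 Snord on the right, with exact 95% Poisson intervals; red circles are the 2 Nsd2 cKO libraries and blue squares the 2 WT libraries. Snora65 (59 and 67 against 43 and 36 reads) and Snora24 (38 and 45 against 22 and 20 reads) show the cKO circles above the WT squares, and most Snord intervals overlap.

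SnoRNAs of 1 host gene shared the sign of the log2 fold change in some hosts and not in others. Of 64 members, 62 lay within a gene on the same strand, in 50 host genes, and 8 of those hosts held 2 to 4 members. Rpl13a, which encodes a protein of the large ribosomal subunit, holds Snord32a, Snord33, Snord34 and Snord35a, and all 4 had log2 fold changes above 0 (0.27, 0.97, 0.12 and 0.28), of which only Snord33 was separated. Rack1, a ribosome-associated scaffold, holds Snord96a and Snord95, both of which were separated in the higher direction. The host 2410006H16Rik holds Snord49a, Snord49b and Snord65, of which Snord49b was higher in both cKO libraries, Snord65 lower in both and Snord49a overlapped at 5.03 and 6.83 RPKM in cKO against 4.96 and 5.90 RPKM in WT. Of the other shared hosts, Rabggtb had 0 of 2 members above 0, Rps3a1, Snhg12 and Rcc1 had 1 of 2 each, and Hspa8 had 2 of 3. A difference between snoRNAs of 1 host was not tested.

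The U14 family lay in 2 hosts, and neither its members nor these hosts were named by the rule given under the processing. Hspa8, a constitutive Hsp70 chaperone, holds Snord14c, Snord14d and Snord14e, and Rps13, of the small ribosomal subunit, holds Snord14a. Hspa8 itself had 751 and 677 RPKM in the Nsd2 cKO libraries, against 887 and 1197 RPKM in the WT libraries, a log2 fold change of -0.53 ± 0.18 (SE, unadjusted limma p 0.0289). Snord14c had 6.58 and 6.49 RPKM in the cKO libraries, against 4.71 and 7.80 RPKM in the WT libraries, and Snord14e had 3.43 and 5.17 RPKM in cKO against 3.94 and 5.16 RPKM in WT. The Hspa8 libraries did not overlap while these 2 snoRNAs did. The values of Snord14d equalled those of Snord14c in every library, 11 and 12 reads in cKO against 8 and 13 in WT, although their sequences, which differ at 2 bases, have 0 of 37 possible 50-nt windows in common. They are thus not separate measurements, and the Snord results were also computed without Snord14d.

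**Figure D4:**
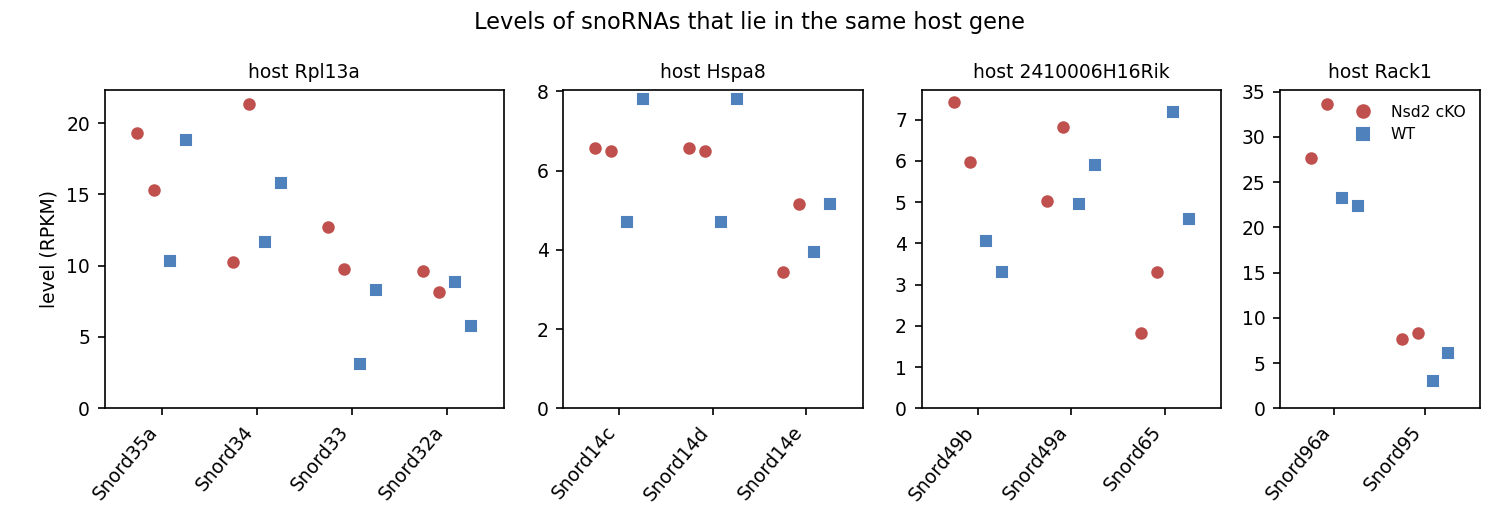
Level in RPKM (vertical axes from 0, with different scales) of snoRNAs that lie in the same host gene, 1 point per library, with Nsd2 cKO as red circles left of WT as blue squares. Snord49b and Snord65, both in 2410006H16Rik, have opposite orders of the genotypes, and Snord14c and Snord14d have the same 4 values.

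The log2 fold changes of the host genes, which are far more deeply read, spanned a narrower range than the -0.999 to 1.59 of the snoRNAs. Of the 50 hosts, 19 encode ribosomal proteins and hold 23 members, and 8 are noncoding hosts of the Snhg kind and hold 9. In GENCODE M21, 31 members lay in an intron of the host, 21 in a transcript with a retained intron and 10 in an exon. Among the 50, 42 lay above 0 on the log2 fold change scale, beside 59.1% of all genes tested. Their median was 0.08, their range -0.53 to 0.44, and 0 were called, beside 0.0% of all genes. The cKO pair stood above the WT pair for 16 hosts and below it for 1, Hspa8, beside 17.4% and 9.06% of all genes. The 5 hosts with the highest log2 fold changes, singled out after their values were seen, were the noncoding Snhg8, Snhg1, Zfas1 and Snhg9 and the coding Rcc1. Snhg8, the host of Snora24, had 27.2 and 30.1 RPKM in the cKO libraries, against 20.3 and 21.4 RPKM in the WT libraries. Snhg1, the host of Snord22, had 39.5 and 45.04 RPKM in the cKO libraries, against 33.5 and 32.9 RPKM in the WT libraries. Neither overlapped between genotypes.

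Snora24 and Snhg8 were both higher in the cKO libraries, with log2 fold changes of 0.84 and 0.44, and Snora24 stands at 48.7% of the Snhg8 level. Rcc1, a chromatin-bound nucleotide exchange factor whose gene span takes in Snora73a and Snora73b, had 11.6 and 11.9 RPKM in the cKO libraries, against 9.24 and 9.20 RPKM in the WT libraries. Snhg3, the noncoding RNA gene that also spans these copies, had 9.16 and 9.68 RPKM in the cKO libraries, against 8.44 and 7.41 RPKM in the WT libraries. Other pairs had unlike values. Snora65 had a log2 fold change of 0.58 while its host Rpl12 had 1533 and 1273 RPKM in the cKO libraries, against 1454 and 1187 RPKM in the WT libraries, a log2 fold change of 0.09. Snora28 had a log2 fold change of 0.69 while its host Eif5, a translation initiation factor, had 46.4 and 65.5 RPKM in the cKO libraries, against 51.5 and 66.8 RPKM in the WT libraries. Snord22 had -0.03 while Snhg1 had 0.34, and Snord47 had -0.47 while Gas5 had 0.19 on the log2 scale.

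Across the 62 pairs of snoRNA and host, higher hosts tended to hold higher snoRNAs (Spearman rho 0.55), but the genotype differences were hardly related (Pearson r 0.15, Spearman rho 0.12). By class, the Spearman rho of the genotype differences was -0.02 for Snord and 0.37 for Snora. The sign of the log2 fold change was shared by 33 of 62 pairs, 21 of 45 Snord and 12 of 17 Snora. Most Snora members (15 of 18) and most of their hosts (13 of 16) lay above 0. Many Snora signs would therefore be shared without a link to the host. These are descriptions across pairs that share libraries and, in part, hosts. The snoRNA level was a median of 3.38% of the host level (0.32% to 94.9%), and it was above 40% for Snora24, Snord22, Snora26, Snora73b, Snora78 and Snord7.

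**Figure D5:**
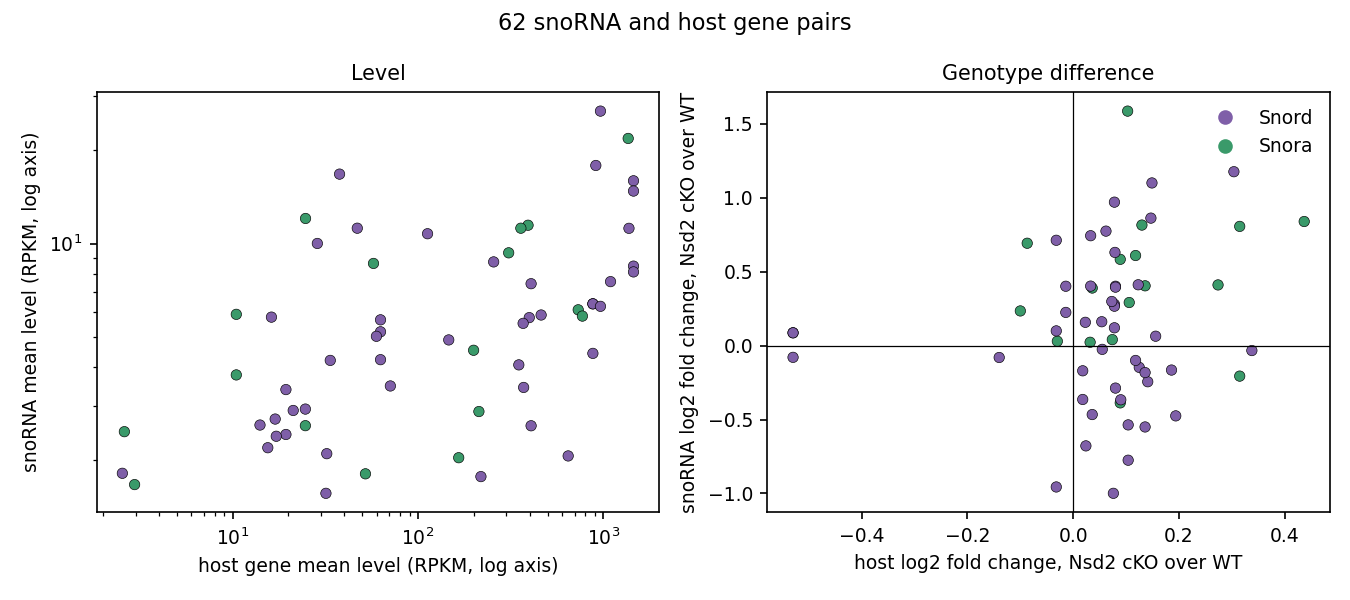
Left, mean level of each snoRNA against that of its host gene (both RPKM, log axes), 62 pairs, Snord in purple and Snora in green; right, log2 fold change (Nsd2 cKO over WT) of the snoRNA against that of its host. Levels lie along a rising cloud (rho 0.55), while most hosts lie near 0 on the right panel whatever the snoRNA value.

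Of 28 tested genes for core snoRNA-binding proteins, assembly factors and degradation or trimming enzymes, 0 were called, beside 0.0% of all genes. Since no gene at all was called, this count does not show that they were alike between genotypes. Of the 4 core proteins of box C/D particles, all lay above 0 on the log2 fold change scale (median 0.10). Among all genes tested, 59.1% lay above 0 (median 0.03). Fbl, the methyltransferase, had 94.0 and 77.8 RPKM in the Nsd2 cKO libraries, against 87.5 and 68.2 RPKM in the WT libraries. Nop56 had 60.9 and 63.7 RPKM in the cKO libraries, against 56.1 and 57.9 RPKM in the WT libraries, without overlap. Nop58 and Snu13, the other core members, had log2 fold changes of 0.01 and 0.08 and overlapped.

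The 4 H/ACA core proteins all lay above 0 as well (median 0.17). Dkc1, the pseudouridine synthase, had 17.6 and 23.97 RPKM in the cKO libraries, against 15.52 and 23.2 RPKM in the WT libraries, and it was high in replicate 2 of both genotypes. Nhp2 had 32.01 and 30.2 RPKM in the cKO libraries, against 29.4 and 24.6 RPKM in the WT libraries. Nop10 had 53.7 and 55.6 RPKM in the cKO libraries, against 49.8 and 48.5 RPKM in the WT libraries. Nhp2 and Nop10 did not overlap between genotypes and their unadjusted limma p was 0.194 and 0.254. Gar1 overlapped, with a log2 fold change of 0.19. Of 14 tested assembly factors, 10 were above 0 (median 0.05), and of 6 degradation and trimming enzymes, 5 were above 0 (median 0.09).

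As checks on the libraries, Nsd2 had 3.46 and 4.27 RPKM in the cKO libraries, against 6.82 and 7.44 RPKM in the WT libraries, which put it at 54.2% of the WT mean (unadjusted limma p 0.00305, adjusted p 0.9998). The 7 Treg markers were all listed, with sums of 1078 and 1201 RPKM in cKO and 1065 and 1146 RPKM in WT. Markers of other cells were low by comparison. The sum over 3 listed B cell genes was 11.7 and 10.8 RPKM in cKO against 8.46 and 6.78 RPKM in WT, that over 7 macrophage and dendritic genes was 21.7 and 6.24 RPKM against 6.95 and 10.4 RPKM, and that over 5 erythroid genes was 43.0 and 7.37 RPKM against 24.4 and 11.5 RPKM. For 5 CD8 T and NK genes the sum was 21.8 and 23.3 RPKM in cKO against 24.2 and 21.1 RPKM in WT. For 3 plasma cell genes, with Xbp1 at a mean of 31.6 RPKM, it was 33.05 and 29.0 RPKM against 32.3 and 33.6 RPKM. The 4 neutrophil genes were not among the listed rows. Of these sums over other cells, only the B cell sum had both cKO libraries above both WT libraries, as the Snora sum did. The part of the B cell sum in the result was not tested.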

How the data were processed

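Per the labels' protocols, the 2 Nsd2 cKO and 2 WT libraries of splenic Treg cells each held RNA mixed from 3 or more mice. The authors deposited RPKM values for RefSeq transcripts; the unit was read from the values. The submitters' processing notes name HISAT2, DESeq2 and the mm10 build, with no version or role, and the counting tool is not stated. The titles gave group and replicate of each library.

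The listing had 19291 rows, and accessions in the NCBI RefSeq table of GRCm38.p6 gave the gene of 16720, the file's own name that of 1351 and GENCODE M21 metadata that of 72. The other 1148, with 10.9% of the RPKM sum, stayed out. The row of highest mean stood for each gene, and those whose mean reached 1 RPKM, 10700 in all, entered a two-sided limma fit of log2(RPKM + 1) on genotype alone (limma 3.58.1 under R 4.3.3), with trend and robust moderation and Benjamini-Hochberg adjustment at 0.05. The fit was tested on simulated data in which every gene had the same length, far longer than a snoRNA. At the same RPKM such genes have many more reads, so that test does not show how the fit performs on the snoRNAs. The depth of each library was the smallest at which every snoRNA value is a whole read. It rests on the snoRNA values themselves, and at it 60 to 61 of 65 other rows shorter than 400 nt were whole reads too, which sets the precision. Hosts were genes of GENCODE M21 that span a snoRNA on its strand.

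The members and the gene lists were chosen with earlier results of these data known. Named were, per class, the 8 snoRNAs of highest mean, any that passed the test and those nearest to 1 RPKM. Up to 4 per direction of lowest p, with a mean of at least 5 RPKM and separated groups, were added. The hosts of all these, the core proteins and Nsd2 were named too. Other names fall outside this rule, and only some of them are marked as chosen after their values were seen. Snora73a, the Snord14 family, Snord32a, Snord49a and Hspa8 are among those without a mark. Same-numbered replicates are not said to be paired. Python 3.11.15, pandas 2.3.3 and matplotlib 3.10.9 made the tables and plots. Pseudocount, filter, scaling, block, moderation, transcript sum and left-out library were varied.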

Additional observations from a re-analysis of the deposited data

How the results depend on the processing

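No snoRNA, snoRNP protein or host passed the threshold under the other pseudocounts, filters, scalings, moderation, transcript sum or replicate block. Over all genes the count was 0 in these, and 1 with the replicate block. Leaving out 1 library, which assumes that the lone library varies like the other genotype, gave 21 to 66 called genes, 1 to 10 snoRNAs and 0 to 3 of the 22 named ones. Those snoRNAs were 0 of 1 and 0 of 6 higher in cKO without cKO replicate 1 or 2, and 7 of 10 and 6 of 7 without WT replicate 1 or 2. Named ones among them were Snord47 (log2 fold change -1.05) and Snora17 (-1.51) without cKO replicate 2, Snora24 (0.89), Snora73b (0.94) and Snora17 (-1.39) without WT replicate 1, and Snord95 (1.16) and Snord33 (1.56) without WT replicate 2. Snord72 and Snord65 also passed without cKO replicate 2 (-1.10 and -1.26), Snord72 without WT replicate 1 (-1.33) and Snord65 without WT replicate 2 (-1.23). Same-numbered libraries deviated together over all genes (correlation 0.513 over 10700) but not over the 64 snoRNAs (-0.0845), and with 2 numbers this says nothing firm on pairing.

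The Snora median log2 fold change was 0.191 with a pseudocount of 5 and 0.257 to 0.541 with 1 library left out. The Snord median, 0.0868 with all libraries, was -0.118 to 0.261 with 1 library left out and turned sign without WT replicate 1. The Snord to Snora level ratio, 1.06 over 4 libraries, was 1.4 for members with at least 40 reads (an alternative chosen after seeing the data). The cKO pair stood above WT for 13 to 25 Snord and 10 to 13 Snora members with 1 library left out, where 32.5% to 40.4% of all genes did. Signs turned with 1 library left out for Snord35b (-0.12 to 0.44), Snord22 (-0.57 to 0.5), Snord35a (-0.12 to 0.68), Snord34 (-0.38 to 0.62), Snord47 (-1.05 to 0.1), Snord17 (-0.68 to 0.35), Snora64 (-0.28 to 0.32), Snora70 (-0.23 to 0.32) and Snora31 (-0.21 to 0.27). With median-of-ratios scaling, Snora64 was -0.02, Snora31 -0.01 and Snora70 -0.0. The causes were not tested. At 12 to 205 reads per member, depth limits single snoRNAs more than sums.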

Other observations

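Among the other short noncoding RNAs described here, Terc alone separated the genotypes, and the spliceosomal RNAs given above overlapped too. Of all genes tested, 26.4% had no overlap, counted in either direction. Terc, the H/ACA-type RNA of telomerase, had 1.05 and 0.592 RPKM in the Nsd2 cKO libraries, against 0.387 and 0.263 RPKM in the WT libraries, without overlap. Its mean of 0.573 RPKM was below the level tested, so the share of 26.4% does not cover Terc. The reads behind the Terc values were not worked out. Scarna6, a small RNA of Cajal bodies, had 0.839 and 0.569 RPKM in the cKO libraries, against 0.827 and 0.211 RPKM in the WT libraries. Rnu7, which acts in histone mRNA processing, had 14.9 and 10.9 RPKM in the cKO libraries, against 14.5 and 12.2 RPKM in the WT libraries. The mitochondrial processing RNA Rmrp had 0.567 and 0.513 RPKM in the cKO libraries, against 0.932 and 0.38 RPKM in the WT libraries. Rpph1 had 3.36 and 1.88 RPKM in the cKO libraries, against 1.89 and 1.61 RPKM in the WT libraries. Scarna6, Rnu7, Rmrp and Rpph1 overlapped between genotypes.

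By place in the host, the 8 Snora in a retained-intron transcript had a median level of 10.3 RPKM. All 8 had a log2 fold change above 0 (median 0.60), beside 59.1% of all genes tested. Among these 8, Snora64 and Snora70 had only 0.02 and 0.04, and -0.02 and -0.0 with median-of-ratios scaling. The 6 in an intron had a median of 3.32 RPKM and 4 of 6 above 0 (median 0.22). Of those in an exon, 3 of 3 were above 0 (median 0.29). Among Snord, 8 of 13 in a retained-intron transcript and 13 of 25 in an intron were above 0 (medians 0.09 and 0.10). In an exon, 3 of 7 Snord were above 0 (median -0.03). These counts are descriptions, and some of these members share a host.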
